A study of Mus musculus with 6 samples.

Results

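The genes described here are the D-type cyclins Ccnd1, Ccnd2 and Ccnd3, the E-type cyclins Ccne1 and Ccne2, the cyclin-dependent kinases (CDKs) Cdk4 and Cdk6, and the CDK inhibitor genes Cdkn1b, Cdkn1c and Cdkn2a. They were chosen by gene symbol, and all 10 were found among 20460 genes. RNA was sequenced from J1, a mouse embryonic stem cell line of strain 129S4/SvJae. The cells were measured after 48 h with 1 µM retinoic acid (RA), which is made from vitamin A and makes stem cells differentiate, or after 48 h with the ethanol vehicle. Each treatment was applied to 3 lines: a Carm1 shRNA line, in which a short hairpin RNA (shRNA) lowers the arginine methyltransferase CARM1, a scramble shRNA line and the wild-type line. All 6 groups were cultured on gelatin with LIF, a cytokine that maintains pluripotency, each group is a single library, and each shRNA is a single line, so that an effect of Carm1 and any other difference between these lines cannot be told apart. The sources used here do not say whether a line was grown from 1 cell.

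In G1, the stretch of the cell cycle before DNA synthesis, D-type cyclins bind CDK4 or CDK6 and E-type cyclins bind CDK2. These kinases phosphorylate the retinoblastoma family of pocket proteins and so release E2F factors, which switch on genes of S phase. INK4 proteins such as p16 block CDK4 and CDK6, and Cip/Kip proteins such as p27 and p57 bind cyclin and CDK together. Mouse embryonic stem cells are known for a short G1, and G1 lengthens as they differentiate.

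Levels are in FPKM, a read count divided by transcript length and by sequencing depth. Summed FPKM were 505264 to 537543 per library, and the smallest steps of low values put the depth at about 24300000 reads for scramble cells with vehicle and 30300000 to 34100000 reads for the other 5 libraries. Carm1 itself was 6.73, 29.9 and 29.5 FPKM with RA in the Carm1 shRNA, scramble and wild-type lines, and 8.49, 36.1 and 37.0 FPKM with vehicle, lowest in the Carm1 shRNA line under both treatments. Beside each marker count that follows stand the shares of all tested genes, 42.9% called higher and 20.7% lower by the test described below. Of 10 markers of pluripotent cells 8 fell with RA, and their summed level was 2861 to 4401 FPKM with RA against 5477 to 5815 FPKM with vehicle. Of 10 listed markers of extraembryonic endoderm 7 were tested and passed as higher, 2 of them (Gata6 and Dab2) with a vehicle mean under the 1 FPKM required for testing, so that the filter fixed their direction. The 10 had sums of 286 to 357 FPKM with RA against 121 to 140 FPKM with vehicle. Of 8 fibroblast markers 4 were tested, and 3 passed as higher and 1 as lower. The filter fixed the direction of 3 of these 4, since Col1a1 and Col1a2 had a vehicle mean under 1 FPKM and Thy1 an RA mean under 1 FPKM. The 8 summed to 9.97 to 19.0 FPKM with RA against 2.47 to 3.42 FPKM with vehicle, and Postn was listed at 0 in every library. Neural markers summed to 176 to 297 FPKM with RA against 266 to 327 FPKM with vehicle, with 2 higher and 3 lower of 6 tested among 8 listed, and Pax6 was tested only through its RA libraries. These marker shifts accompany every RA result below, and their part in those results was not tested. In bulk RNA, fewer cells of a type and less RNA per cell cannot be told apart.

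With RA, most of the G1 cyclin and kinase genes chosen here were lower, and the 3 inhibitor genes chosen here were higher. Cdkn1a, an inhibitor gene outside the 10, was lower with RA in each line. Ccnd1, Ccnd3, Ccne1, Cdk4 and Cdk6 fell, Cdkn1b, Cdkn1c and Cdkn2a rose, and Ccnd2 and Ccne2 did not pass the test. The test was limma on log2(FPKM + 1) with the line as a block, and p-values were adjusted over 11227 genes whose mean reached 1 FPKM. All 10 genes reached that mean, Cdkn2a only through its RA libraries, so that the filter fixed its direction. The counts of 5 lower and 3 higher stand beside 20.7% of all tested genes called lower and 42.9% called higher. Of all calls 67.4% were higher as deposited, 50.2% under median-of-ratios size factors and 43.7% with quantiles matched, and the median change of all genes was 0.14, 0.0015 and -0.054 (log2) in these settings. The counts for the cyclin, CDK and inhibitor genes were 3 higher and 5 lower under all 3 scalings, although Cdk4 was not among the lower genes with quantiles matched and Ccne2 was. Of all 11227 genes, 4816 were called higher and 2325 lower as deposited. Under median-of-ratios size factors 3662 were higher and 3631 lower, and with quantiles matched 2992 were higher and 3847 lower.

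**Figure D1:**
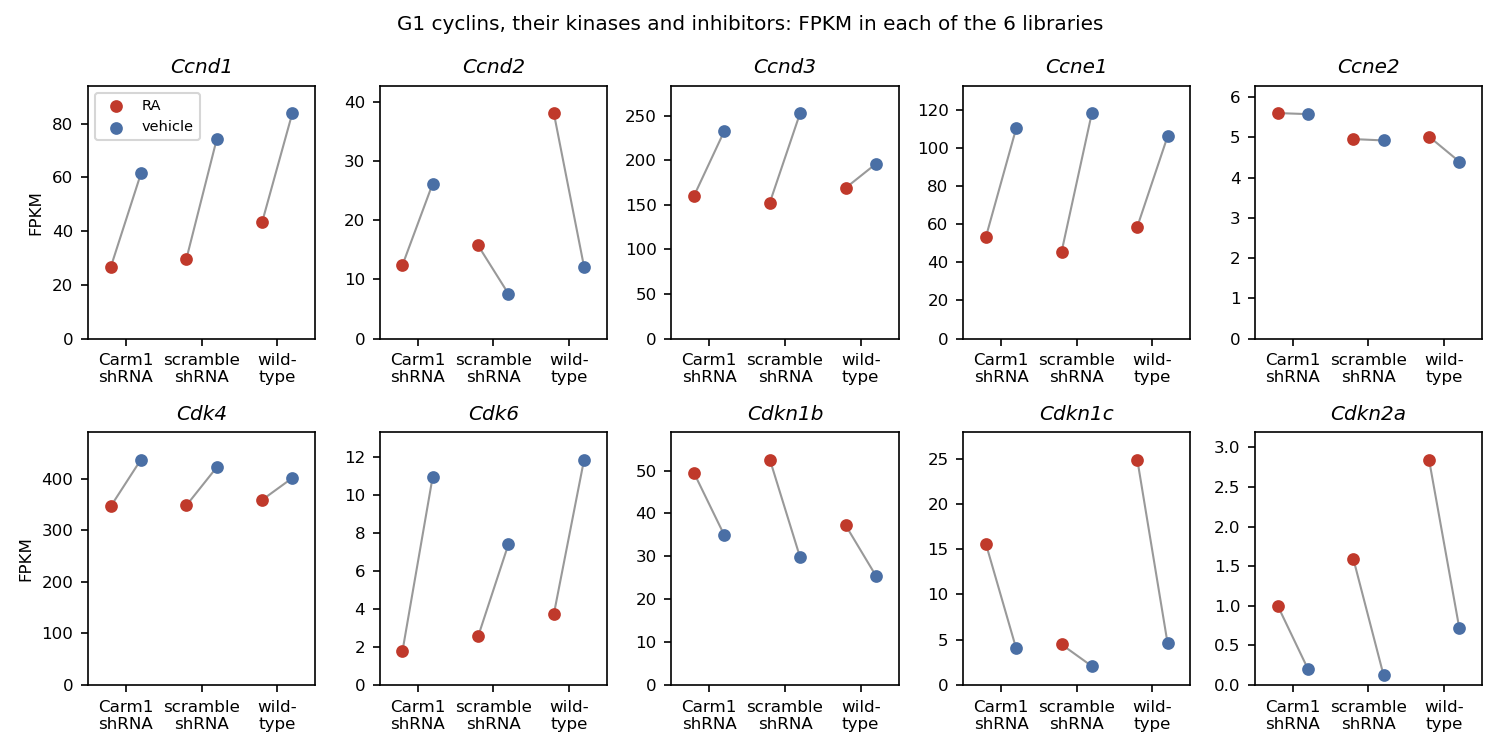
FPKM of each gene (vertical axes from 0) in the Carm1 shRNA, scramble shRNA and wild-type lines. Each point is 1 library, with RA in red to the left of vehicle in blue, and a grey line joins the libraries of a line. Ccnd1, Ccnd3, Ccne1, Cdk4 and Cdk6 were lower with RA in all 3 lines, and Ccnd2 was lower with RA only in the Carm1 shRNA line.

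The 10 transcripts differed widely in level. Cdk4 was the most abundant, with a mean of 386 FPKM over the 6 libraries, and its lowest library (347 FPKM) exceeded the highest of Ccnd3 (253 FPKM). Ccnd3 averaged 194 FPKM, and its lowest library (153 FPKM) exceeded the highest of Ccne1 (119 FPKM). Below these the ranges of neighbours overlapped: Ccne1 averaged 82.2 FPKM, Ccnd1 53.2 FPKM, Cdkn1b 38.2 FPKM, Ccnd2 18.7 FPKM, Cdkn1c 9.28 FPKM, Cdk6 6.38 FPKM and Ccne2 5.08 FPKM. Cdkn2a was the lowest with a mean of 1.08 FPKM, and its highest library (2.84 FPKM) overlapped the range of Cdk6 and not that of Ccne2.

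Among the D-type cyclins, Ccnd1 fell most. Ccnd1 (chromosome 7, 152115836 to 152125830, build mm9), which encodes the cyclin D1 that links growth factor signals to the cell cycle, was 26.5, 29.6 and 43.3 FPKM with RA in the Carm1 shRNA, scramble and wild-type lines, against 61.5, 74.1 and 84.0 FPKM with vehicle. All RA libraries lay below all vehicle libraries, and the wild-type line was highest under both treatments. The fitted change was -1.14 ± 0.09 (SE, n = 3 lines) in log2(FPKM + 1) units, as are all changes below (limma, adjusted p = 0.000775). Groups that do not overlap in this way, RA below vehicle, occurred in 20.5% of all tested genes, and RA above vehicle in 40.5%.

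Ccnd3 (chromosome 17, 47642000 to 47736637), the gene of cyclin D3, was 160.4, 153 and 169 FPKM with RA in the Carm1 shRNA, scramble and wild-type lines, against 233, 253 and 196 FPKM with vehicle. The groups did not overlap, and the wild-type line differed least between treatments. The change was -0.49 ± 0.11 (limma, adjusted p = 0.0131). This call ended without the scramble line (adjusted p = 0.0656) and with no low-value filter (adjusted p = 0.108). The annotated span of Ccnd3 shares 358 bases with Bysl, and the labels do not say whether reads were counted by strand.

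Ccnd2 (chromosome 6, 127075727 to 127101066), the gene of cyclin D2, was the member whose direction differed between lines. In Carm1 shRNA cells it was 12.4 FPKM with RA against 26.2 FPKM with vehicle. In scramble cells it was 15.8 FPKM with RA against 7.59 FPKM with vehicle, and in wild-type cells 38.2 FPKM with RA against 12.1 FPKM with vehicle. RA libraries and vehicle libraries overlapped, because the vehicle library of the Carm1 shRNA line was the second highest of all 6. Over the 3 lines the change was 0.51 ± 0.49 with a 95% interval of -0.74 to 1.75 (limma, adjusted p = 0.399). Without the Carm1 shRNA line Ccnd2 rose by 1.27 ± 0.17 (limma, adjusted p = 0.00476), and without the wild-type line the value was -0.028 ± 0.43 (limma, adjusted p = 0.959).

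The D-type cyclin transcripts together were fewer with RA, and their makeup shifted. Since FPKM are per length, the 3 genes can be added. The sum was 199, 198 and 250.4 FPKM with RA in the Carm1 shRNA, scramble and wild-type lines, against 321, 335 and 292 FPKM with vehicle. The RA sums were thus 62.1%, 59.2% and 85.7% of the vehicle sums. Ccnd3 made up 80.5%, 77.1% and 67.5% of the sum with RA in the Carm1 shRNA, scramble and wild-type lines, against 72.7%, 75.6% and 67.1% with vehicle. The share of Ccnd1 was 13.3%, 15.0% and 17.3% with RA against 19.2%, 22.1% and 28.7% with vehicle, lower in each line. The share of Ccnd2 was 7.96% with RA against 2.27% with vehicle in the scramble line and 15.3% against 4.15% in the wild-type line, but 6.23% against 8.18% in the Carm1 shRNA line. In the wild-type line with RA the level of Ccnd1 was 1.13 times that of Ccnd2, against 6.93 times with vehicle. The mean log2 ratio of the sums was -0.56 ± 0.29 (SD, n = 3 lines), lower with RA in each line. No p-value is given for sums over genes chosen with earlier results known.

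**Figure D2:**
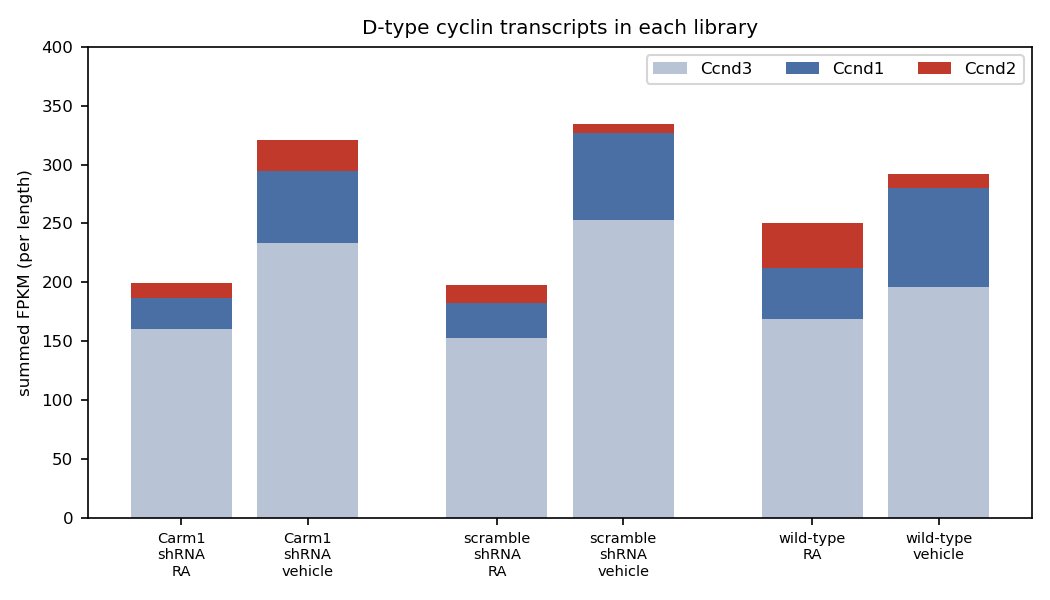
Summed FPKM of the D-type cyclin genes in each library, from 0, with Ccnd3 at the bottom, Ccnd1 in the middle and Ccnd2 on top, and RA to the left of vehicle in each line. The sums were 198 to 250.4 FPKM with RA and 292 to 335 FPKM with vehicle, and the Ccnd2 segment was thicker with RA in the scramble and wild-type lines and thinner in the Carm1 shRNA line.

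The E-type cyclins differed from each other. Ccne1 (chromosome 7, 38883003 to 38892509), whose product cyclin E1 activates CDK2 at the start of S phase, was 53.4, 45.6 and 58.7 FPKM with RA in the Carm1 shRNA, scramble and wild-type lines, against 110.5, 119 and 106 FPKM with vehicle. The groups were far apart, since the highest RA library lay below the lowest vehicle library in all 3 lines. The change was -1.08 ± 0.11 (limma, adjusted p = 0.00131). Ccne2 (chromosome 4, 11118501 to 11131926), the gene of the related cyclin E2, was 5.60, 4.96 and 5.02 FPKM with RA and 5.58, 4.92 and 4.40 FPKM with vehicle. The groups overlapped, and the fitted value was 0.057 ± 0.068 with a 95% interval of -0.12 to 0.23 (limma, adjusted p = 0.488). Its sign depended on scaling: it was -0.078 under median-of-ratios size factors (adjusted p = 0.375) and -0.33 with quantiles matched (adjusted p = 0.0208). Ccne2 shares 5622 of its 13426 annotated bases with Ints8, which stood at 26.4 to 28.3 FPKM in the 6 libraries. Ccne1 made up 90.2 to 92.1% of the E-type sum with RA and 95.2 to 96.0% with vehicle.

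Of the partner kinases, Cdk6 had the lowest RA coefficient of the 10 genes and Cdk4 changed little. Cdk6 (chromosome 5, 3344312 to 3522225), which like Cdk4 encodes a kinase that D-type cyclins activate, was 1.77, 2.56 and 3.73 FPKM with RA in the Carm1 shRNA, scramble and wild-type lines, against 11.0, 7.41 and 11.9 FPKM with vehicle. The RA levels were 16.2%, 34.5% and 31.4% of the vehicle levels. The groups did not overlap, and the change was -1.60 ± 0.17 (limma, adjusted p = 0.00149). Cdk6 alone among the 10 genes was at least 2-fold lower in each line, both in plain FPKM, as were 1.34% of all tested genes, and on the log2(FPKM + 1) scale, as were 0.802%. In plain FPKM, 2 of the 10 were at least 2-fold higher in each line, Cdkn1c and Cdkn2a, against 8.71% of all tested genes. Cdkn2a was tested only through its RA libraries, so the filter fixed its direction. On the log2(FPKM + 1) scale, which shrinks the change of low genes, 0 of the 10 were, against 5.22%.

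Cdk4 (chromosome 10, 126500659 to 126504338) was 347, 349 and 359 FPKM with RA against 438, 422 and 402 FPKM with vehicle in the Carm1 shRNA, scramble and wild-type lines. The libraries of each treatment were close together and the treatments did not overlap. The change was -0.26 ± 0.07 (limma, adjusted p = 0.0220). The call ended without the scramble line (adjusted p = 0.102), without the Carm1 shRNA line (adjusted p = 0.120), without a filter (adjusted p = 0.0597) and with quantiles matched (adjusted p = 0.0547). Cdk4 exceeded Cdk6 96.4-fold to 195-fold with RA and 33.8-fold to 57.0-fold with vehicle, so that Cdk6 made up 0.509 to 1.03% of their sum with RA and 1.72 to 2.87% with vehicle.

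The promoters of the 2 kinase genes are shown because both fell with RA while differing in level. Each is a RefSeq window of 250 bases before to 50 bases after an annotated start, on build GRCm38.p6, chr10:127063285-127063584 on the plus strand for Cdk4 and chr5:3343643-3343942 on the plus strand for Cdk6. Capitals mark CACGTG, the E-box that Myc factors read, and TTTNNCGC, each searched on both strands. TTTNNCGC, with any base at N, is looser than the usual E2F motif, so a match need not be an E2F site.
Cdk4: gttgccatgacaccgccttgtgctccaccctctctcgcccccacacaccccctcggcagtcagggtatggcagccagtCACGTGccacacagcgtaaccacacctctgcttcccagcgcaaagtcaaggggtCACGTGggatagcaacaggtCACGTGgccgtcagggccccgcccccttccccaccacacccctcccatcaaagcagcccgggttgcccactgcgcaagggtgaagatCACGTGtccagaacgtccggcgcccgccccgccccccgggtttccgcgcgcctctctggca
Cdk6: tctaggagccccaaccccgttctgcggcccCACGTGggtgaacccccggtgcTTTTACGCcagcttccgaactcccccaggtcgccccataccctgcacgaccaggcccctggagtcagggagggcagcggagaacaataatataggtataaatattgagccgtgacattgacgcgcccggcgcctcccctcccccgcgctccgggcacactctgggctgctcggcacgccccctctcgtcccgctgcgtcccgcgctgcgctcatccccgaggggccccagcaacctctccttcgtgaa
The Cdk4 window held CACGTG 4 times, at -172, -118, -98 and -11 relative to the start (first base of each), and no TTTNNCGC. The Cdk6 window held CACGTG once at -220 and TTTNNCGC once at -198. Of 32851 windows of this length in the RefSeq table, 7.15% held CACGTG, 0.0244% held it at least 4 times and 5.17% held TTTNNCGC. A direct-repeat retinoic acid response element, with spacing of 1, 2 or 5 bases, was in none of the 8 windows found for Ccnd3, Ccne1, Cdk4, Cdk6, Cdkn1b and Cdkn2a, against 0.588% of all windows. Of these 8 windows 3 held TTTNNCGC and 2 held CACGTG, and those of Ccnd3, Ccne1 and Cdkn1b held neither. No window was available for Ccnd1, Ccnd2, Ccne2 and Cdkn1c, so their promoters were not searched. These matches describe letters only, and binding was not measured.

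**Figure D3:**
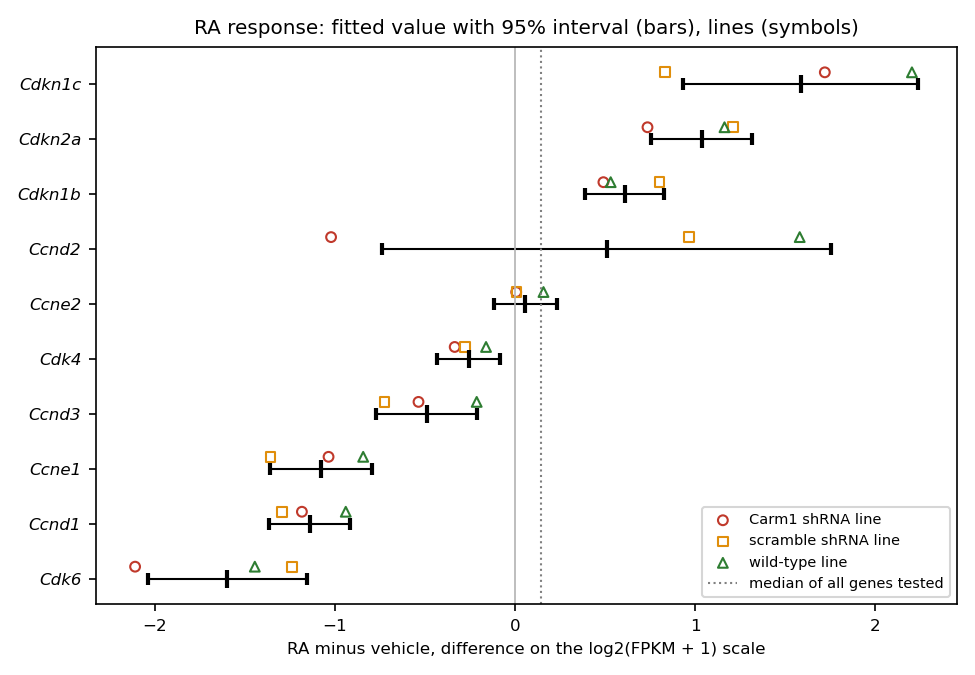
RA minus vehicle for each gene on the log2(FPKM + 1) scale. The black tick is the limma value over 3 lines with its 95% interval, open symbols are the single lines, and the dotted line is the median of all genes tested (0.14). The intervals of 8 genes lie clear of 0, 5 below and 3 above, and the Ccnd2 interval spans -0.74 to 1.75.

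The inhibitor genes chosen here were higher with RA. Cdkn1b (chromosome 6, 134870419 to 134875543), the gene of p27, was 49.4, 52.6 and 37.3 FPKM with RA in the Carm1 shRNA, scramble and wild-type lines, against 34.9, 29.7 and 25.5 FPKM with vehicle. The lowest RA library, that of the wild-type line, lay above the highest vehicle library, that of the Carm1 shRNA line. The change was 0.61 ± 0.09 (limma, adjusted p = 0.00299).

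Cdkn1c (chromosome 7, 150644244 to 150646955), the imprinted gene of p57, was 15.6, 4.48 and 24.9 FPKM with RA in the Carm1 shRNA, scramble and wild-type lines, against 4.04, 2.08 and 4.62 FPKM with vehicle. It was higher with RA in each line, but the groups overlapped, because the scramble line stayed low. The change was 1.58 ± 0.26 (limma, adjusted p = 0.00454), made up of 1.72, 0.83 and 2.20 in the Carm1 shRNA, scramble and wild-type lines. The call ended with no low-value filter (adjusted p = 0.0828) and in the fit without the line as block (adjusted p = 0.0525).

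Cdkn2a (chromosome 4, 88920377 to 88940523) encodes p16, an INK4 protein, and the unrelated protein p19Arf, which acts on p53, from separate first exons. It was 1.00, 1.59 and 2.84 FPKM with RA in the Carm1 shRNA, scramble and wild-type lines, against 0.203, 0.123 and 0.718 FPKM with vehicle. At the depths above these values stand for about 29.3, 43.0 and 84.7 reads with RA and 5.4, 2.6 and 19.8 reads with vehicle. The groups did not overlap, and the change was 1.03 ± 0.11 (limma, adjusted p = 0.00146). All vehicle libraries were under 1 FPKM, so Cdkn2a could reach the mean required for testing only through its RA libraries, and this count of 1 among the higher genes was in that sense fixed by the filter. With a pseudocount of 0.1 in place of 1 the change was 2.21, with quantiles matched it was 0.47, and without the wild-type line the gene fell under the filter.

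The deposited value for Cdkn2a joins both products, and the windows at their separate starts are shown to make clear what is joined. On the minus strand of build GRCm38.p6, the upstream start, which leads into the p19Arf exon, lies in chr4:89294570-89294869 and the downstream start, which leads into the p16 exon, in chr4:89282143-89282442. Capitals mark TTTNNCGC.
Cdkn2a upstream start: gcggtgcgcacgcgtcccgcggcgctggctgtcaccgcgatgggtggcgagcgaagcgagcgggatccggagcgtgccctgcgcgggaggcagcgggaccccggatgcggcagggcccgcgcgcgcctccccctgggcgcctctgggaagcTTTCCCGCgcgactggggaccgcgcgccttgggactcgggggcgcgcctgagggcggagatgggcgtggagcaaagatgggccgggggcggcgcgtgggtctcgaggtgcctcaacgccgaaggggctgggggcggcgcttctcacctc
Cdkn2a downstream start: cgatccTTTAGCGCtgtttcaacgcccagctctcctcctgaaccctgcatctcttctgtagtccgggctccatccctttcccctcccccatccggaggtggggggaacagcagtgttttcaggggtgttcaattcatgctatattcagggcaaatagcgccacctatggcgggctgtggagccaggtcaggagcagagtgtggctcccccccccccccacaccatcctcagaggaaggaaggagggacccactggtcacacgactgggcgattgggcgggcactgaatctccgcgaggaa
Each window held TTTNNCGC once, at -99 in the upstream and -244 in the downstream window. The GC content was 77.0% and 60.3%, against a median of 52.7% over all windows.

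Transcripts of the Cip/Kip genes Cdkn1b and Cdkn1c together stood higher against the D-type cyclins with RA. The D-type cyclin sum was 3.07, 3.47 and 4.03 times the sum of Cdkn1b and Cdkn1c with RA in the Carm1 shRNA, scramble and wild-type lines, against 8.25, 10.5 and 9.69 times with vehicle. The RA ratios lay below all vehicle ratios. Left out of these sums is Cdkn1a, the gene of the Cip/Kip protein p21. Cdkn1a was 34.1, 28.7 and 17.1 FPKM with RA against 39.5, 31.4 and 21.9 FPKM with vehicle, lower with RA in each line. Ratios for the whole family were not computed. Cdkn1c made up 24.0%, 7.85% and 40.0% of the sum of Cdkn1b and Cdkn1c with RA and 10.4%, 6.53% and 15.3% with vehicle. These ratios describe transcript levels, with no p-value and no measure of protein.

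The lines were also compared with each other over both treatments. Between the Carm1 shRNA and scramble lines none of the 10 passed (limma on the same fit), where 0% of all genes were called higher and 0.0178% lower. At an unadjusted p under 0.05 there was 1 of the 10, against 10.6% of all genes. The highest value was that of Cdkn1c, 1.15 ± 0.31 (limma, adjusted p = 0.310), with 15.6 FPKM in Carm1 shRNA cells and 4.48 FPKM in scramble cells under RA, and 4.04 and 2.08 FPKM in the same order under vehicle. Cdkn1c was also lower in the scramble line than in the wild-type line, at -1.55 ± 0.31, without passing (limma, adjusted p = 0.0756). In that contrast 0 of the 10 passed the adjusted limma test and 4 had an unadjusted p under 0.05, against 0.748% of genes called higher, 1.04% called lower and 23.9% with an unadjusted p under 0.05.

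Between the Carm1 shRNA and wild-type lines 1 of the 10 passed, where 2.92% of all genes were called higher and 2.76% lower. At an unadjusted p under 0.05 there were 3, against 27.5% of all genes. The gene that passed was Cdkn2a, at -0.73 ± 0.14 (limma, adjusted p = 0.0491). Without the wild-type line Cdkn2a fell under the mean required for testing, so the filter admitted it through the line where it was high, and the call is not support for a difference. The call ended with a pseudocount of 0.1 (adjusted p = 0.0802), without a filter (adjusted p = 0.246), with quantiles matched (adjusted p = 0.0779) and without the scramble line (adjusted p = 0.0981). The scramble line was also below the wild-type line, at -0.59 ± 0.14 (limma, adjusted p = 0.0903). Ccnd1 was lower in the Carm1 shRNA line than in the wild-type line by a similar margin without passing (-0.57 ± 0.11, limma, adjusted p = 0.0512), and Cdkn1b was higher without passing (0.42 ± 0.10, limma, adjusted p = 0.0822). The scramble line differed from the wild-type line in the same directions without passing. Those values were -0.35 ± 0.11 for Ccnd1 (limma, adjusted p = 0.140) and 0.35 ± 0.10 for Cdkn1b (limma, adjusted p = 0.135). Against the scramble line, the Carm1 shRNA line stood at -0.21 ± 0.11 for Ccnd1 and 0.067 ± 0.10 for Cdkn1b.

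Within a treatment, where no test is possible, 3 differences of a line from both others reached 2-fold on the log2(FPKM + 1) scale and 4 did in plain FPKM. Ccnd2 with vehicle was higher in the Carm1 shRNA line, 3.46 times the scramble and 2.17 times the wild-type FPKM, and on the log2(FPKM + 1) scale so were 0.0891% of all tested genes. Ccnd2 with RA was higher in the wild-type line, where 0.481% of genes were. Cdkn1c with RA was lower in the scramble line, at 18.0% of the wild-type FPKM, where 0.0445% of genes were. The difference found in plain FPKM alone was Cdkn2a with vehicle, at 0.203 and 0.123 FPKM in the Carm1 shRNA and scramble lines against 0.718 FPKM in the wild-type line, where 1.23% of genes were higher in the wild-type line. The first difference involves the Carm1 shRNA line, and the others set a control line apart.

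The RA response itself differed most between the Carm1 shRNA line and the control lines for Ccnd2. Its log2 change was -1.02 in the Carm1 shRNA line, against 0.96 in the scramble line and 1.58 in the wild-type line. The interaction term was -2.29 ± 0.29, with a 95% interval of -3.03 to -1.56 (limma, unadjusted p = 0.000468, adjusted p = 0.9996). None of the 11227 genes had a more negative term, and the central 95% of genes lay between -0.46 and 0.51. The model has 1 residual degree of freedom and a single Carm1 shRNA library per treatment, so its error, before limma shares information across genes, is only the spread between the responses of the control lines. No gene passed in this fit in either direction (0% called), and 3.64% had an unadjusted p under 0.05, among them 3 of the 10, Ccnd2, Cdk6 (-0.77 ± 0.18, limma, unadjusted p = 0.00813) and Cdkn2a (-0.45 ± 0.17, limma, unadjusted p = 0.0408). Plain FPKM did not show this for Cdkn2a. Its RA level was 4.93, 13.0 and 3.96 times the vehicle level in the Carm1 shRNA, scramble and wild-type lines. The Carm1 shRNA value lay between those of the control lines. Cdkn2a was tested only through its RA libraries and held about 2.6 to 19.8 reads per vehicle library. With the limma trend, 1 gene passed. The adjusted p of Ccnd2 was 0.0580 to 0.9999 over the 6 alternatives, lowest with the limma trend.

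**Figure D4:**
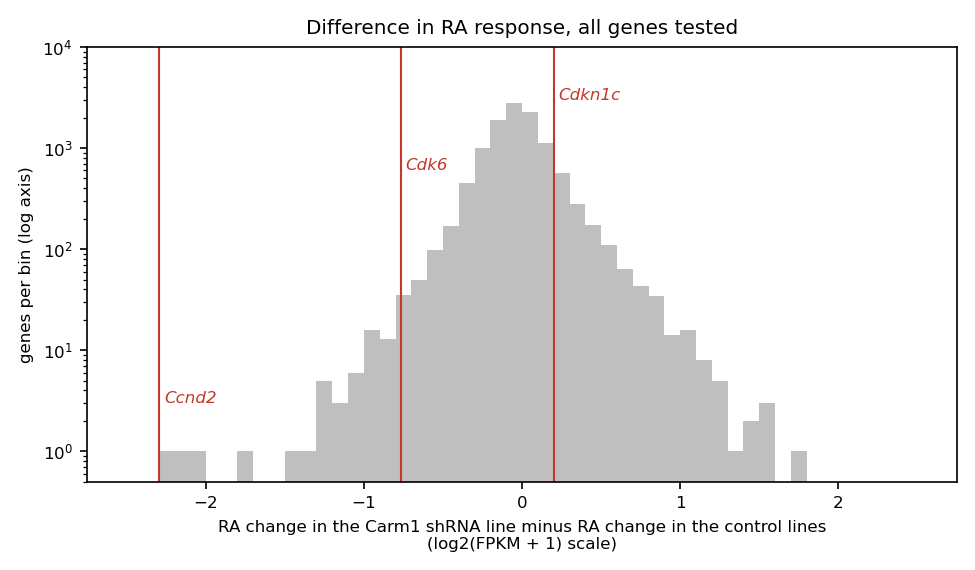
Number of genes (vertical, log axis) by the difference between the RA change of the Carm1 shRNA line and that of the control lines (horizontal, log2(FPKM + 1) scale), for 11227 genes. Red lines mark Ccnd2 at -2.29, Cdk6 at -0.77 and Cdkn1c at 0.20, and Ccnd2 lies at the lower end of the range.

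The Carm1 shRNA line had the highest Ccnd2 level of the 3 lines with vehicle and the lowest with RA. Of all tested genes 5.21% were lower with RA in the Carm1 shRNA line and higher in both control lines at any size. A change of at least 1.5-fold downward in the Carm1 shRNA line and at least 1.5-fold upward in both control lines was found in 0.0267% of tested genes. These were Ccnd2, Arrdc2 and Tdg, a pattern defined after the values were seen. The same interaction with a control line in the place of the Carm1 shRNA line called no gene (0% in each direction, limma). For the scramble line 1 of the 10 had an unadjusted p under 0.05, Cdkn1c at -1.13 ± 0.25, against 3.07% of all genes. For the wild-type line 2 did, Ccnd3 at 0.42 ± 0.16 and Cdkn1c at 0.93 ± 0.35, against 10.8%.

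Genes with the most similar profiles were ranked by the root mean square difference between centred log2(FPKM + 1) profiles over the 6 libraries, among 8442 genes whose mean reached 5 FPKM. For Cdk6 these were Mycn, Spry4, Lin28a and Adam23, with differences of 0.23 to 0.27 against a median of 0.89 over all genes. Mycn, for example, was 4.64, 5.88 and 11.4 FPKM with RA in the Carm1 shRNA, scramble and wild-type lines, against 28.8, 25.1 and 32.3 FPKM with vehicle. For Cdkn1c they were Porcn, BC096441, Ptch1 and Tuba3a, at 0.44 to 0.48 against a median of 1.06. For Ccnd2 they were Foxp1, Bnip3, Baz1a and Il17rd, at 0.47 to 0.50 against a median of 0.74, so no other gene tracked Ccnd2 as closely as Mycn tracked Cdk6. The ranking describes 6 libraries and carries no test.

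The pathway around these genes was followed in 5 lists. E2F target genes of S phase entry were lower with RA, with 14 of 17 falling and none rising, against 20.7% and 42.9% of all tested genes. Their median change was -0.42, against 0.14 for all tested genes. Rrm2, a subunit of ribonucleotide reductase, fell by 0.87 ± 0.11 to 122, 126 and 134 FPKM with RA in the Carm1 shRNA, scramble and wild-type lines, against 256, 244 and 203 FPKM with vehicle. The licensing factor gene Cdt1 (-0.80 ± 0.10), the uracil glycosylase gene Ung (-0.65 ± 0.08) and Pcna, the sliding clamp of DNA polymerase (-0.62 ± 0.09), followed. Rrm1, Tyms and Gmnn did not pass. Over the alternatives 8 to 17 members fell and none rose, with 8 in the fit without a filter and 10 without either the scramble or the Carm1 shRNA line. Of all genes, 1628 of 20460 fell without a filter, 1381 of 11219 without the scramble line and 1506 of 11213 without the Carm1 shRNA line. The 17 fell under median-of-ratios size factors, where 3631 of 11227 genes fell.

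Of 13 pocket protein and E2F genes 5 were higher and 5 lower, against 42.9% and 20.7% of all tested genes, and the share of higher genes was near that of all genes. Rb1, the retinoblastoma gene, rose by 0.88 ± 0.06, to 11.0, 12.4 and 7.77 FPKM with RA against 5.39, 6.09 and 4.0 FPKM with vehicle in the Carm1 shRNA, scramble and wild-type lines. E2f6, a repressor (0.66 ± 0.06), the dimer partner gene Tfdp2 (0.55 ± 0.06) and E2f5 (0.37 ± 0.07) rose too. The activator gene E2f2 (-0.93 ± 0.07), E2f8 (-0.95 ± 0.19), E2f4 (-0.74 ± 0.07) and Tfdp1 (-0.39 ± 0.06) fell, the E2f8 call ending without the scramble line and without a filter. Less firm were Rbl1, called higher (0.24 ± 0.07), and E2f3, called lower (-0.33 ± 0.08). The Rbl1 call ended in 7 of 10 alternatives, with values of -0.044 to 0.29, and the E2f3 call in 3 of 10. E2f1 did not pass (0.011 ± 0.14, limma, adjusted p = 0.949), and was 25.3, 20.5 and 37.9 FPKM with RA against 28.6, 24.0 and 28.0 FPKM with vehicle, higher with RA only in the wild-type line. The list's median was 0.011, against -0.14 under median-of-ratios size factors and -0.33 with quantiles matched.

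Of 5 other CDK inhibitor genes 3 were tested. Cdkn1a, the p21 gene and a p53 target, fell (-0.22 ± 0.07, limma, adjusted p = 0.0399), while Cdkn2d (0.51 ± 0.13) and Cdkn3 (0.39 ± 0.09) passed as higher. Cdkn2d had a vehicle mean of 0.763 FPKM against 1.49 FPKM with RA, so it was tested only through its RA libraries. The Cdkn1a call ended in 6 of 10 alternatives, among them each of the 3 fits that leave out a line, with adjusted p of 0.00526 to 0.556. The Cdkn3 call ended in 4 of 10 and the Cdkn2d call in 4 of the 9 that tested it. Cdkn2b and Cdkn2c were not tested and peaked at 0.431 and 0.900 FPKM. The list's median of 0.39 was 0.24 under median-of-ratios size factors and 0.00082 with quantiles matched.

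Among S and M phase cyclins and CDKs, 2 of 8 tested genes were lower, a share near the 20.7% of all tested genes, and none was higher, against 42.9%. Ccna2 (-0.46 ± 0.09) and Ccnb1 (-0.46 ± 0.08) fell, the Ccna2 call ending without the scramble line and without a filter. Under median-of-ratios size factors 5 of 8 fell, against 3631 of all 11227 genes. Cdk2, the partner of the E-type cyclins, did not pass (-0.053 ± 0.061, limma, adjusted p = 0.474) and was 32.2, 32.9 and 31.8 FPKM with RA against 33.7, 33.7 and 33.1 FPKM with vehicle. Of 15 tested ubiquitin ligase and phosphatase regulators 5 fell, among them the CDK-binding protein gene Cks2 (-0.52 ± 0.07) and the phosphatase gene Cdc25a (-0.37 ± 0.09), and 1 rose, the phosphatase gene Cdc25b (0.88 ± 0.06), against the same 20.7% and 42.9%. The Cdc25a call ended in 3 of 10 alternatives. Skp2, whose product marks p27 for destruction, did not pass (-0.34 ± 0.12, limma, adjusted p = 0.0528). Between 2 and 8 members of this list fell over the alternatives, with 2 in the fit without the Carm1 shRNA line and 8 under median-of-ratios size factors. In these fits 1506 of 11213 and 3631 of 11227 genes fell.

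**Figure D5:**
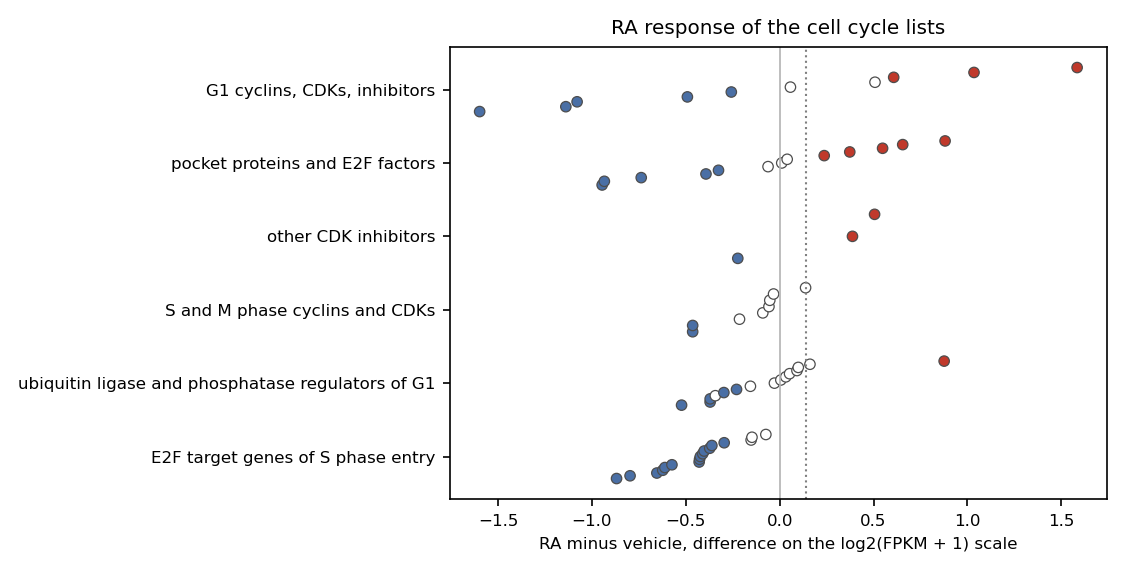
RA minus vehicle on the log2(FPKM + 1) scale for each tested gene of the 6 groups. Red points passed and were higher, blue points passed and were lower, white points did not pass, and the dotted line is the median of all genes tested (0.14). In the E2F target row 14 of 17 points are blue and none is red, while the pocket protein and E2F row holds 5 of each colour.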

How the data were processed

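RNA was sequenced as single-end 51-nucleotide reads in 6 libraries, per the labels' protocols. The authors deposited FPKM, made with TopHat2 and Cufflinks on mm9, per the submitters' processing notes; their versions, and any scaling between libraries, are not given there. The table held 20793 rows. The 2 rows with a failed estimate were left out, and 331 rows repeating a symbol were dropped in favour of the row with the highest mean, leaving 20460 genes. The workbook repeats the table, with 0 differing values, and its other sheets were not used. Starts have 1 added.

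Values were tested as log2(FPKM + 1) where the mean was at least 1 FPKM (11227 genes), so that fold changes of low genes are understated. limma 3.58.1 in R 4.3.3 fitted terms for line and treatment, leaving 2 residual degrees of freedom, or with an interaction of treatment and the Carm1 shRNA line with 1. P-values were adjusted by Benjamini-Hochberg (threshold 0.05). Lines pair the treatments, since each was measured under both. The labels name no replicate cultures, and p-values therefore reflect the spread among these libraries alone. The fit was tested on simulated data. Depth was estimated from the most common step of low FPKM times the length of GENCODE M21 transcripts.

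Named genes were the 10 genes, Carm1, up to 4 per direction and list with the largest change, members needed to complete a count, and profile neighbours. Members and lists were chosen with earlier results of these data known. Alternatives were pseudocount, filter, scaling, variance trend, no block and leaving out each line.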

Additional observations from a re-analysis of the deposited data

Results flagged for a closer look

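Ccnd2 is listed because its RA level was below its vehicle level in Carm1 shRNA cells and above it in both kinds of control cells. With RA it was 12.4, 15.8 and 38.2 FPKM in Carm1 shRNA, scramble and wild-type cells, and with vehicle 26.2, 7.59 and 12.1 FPKM. The difference in response was -2.29 (log2), and it did not pass the adjusted test (limma, adjusted p = 0.9996). It rests on 1 Carm1 shRNA library per treatment.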

How the results depend on the processing

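The RA calls of Ccnd1, Ccne1, Cdk6 and Cdkn1b kept direction and side of the threshold in all 10 alternatives. Cdkn2a did so in the 8 that tested it, at 0.47 to 2.21, but where the filter applied it fixed the direction. Over all 10 genes, 86 of 98 recomputed RA values kept direction and side. Among them are the 8 of Cdkn2a and, for Ccnd2 and Ccne2, 8 values each that stayed short of the threshold. Changing only the filter, the variance trend or the block leaves the fitted change as it is, so its direction could not turn there. Leaving out 1 line put Ccnd2 between -0.028 and 1.27, lowest without the wild-type line and highest, past the threshold, without the Carm1 shRNA line. Ccne2 was -0.078 under median-of-ratios size factors and -0.33 with quantiles matched. Of the 10 genes, 3 were lower and 2 higher without a filter on low values. In that fit 1628 of all 20460 genes were lower and 3716 higher. Leaving out 1 line gave 3 to 5 lower and 2 to 4 higher, where 1381 to 2299 of all genes were lower and 3373 to 4725 higher. The fit without the replicate block called 2 higher and 5 lower, and 3964 higher and 1735 lower of all 11227 genes.

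Over all genes, 4816 were higher and 2325 lower with RA. With quantiles matched 2992 were higher and 3847 lower, and under median-of-ratios size factors 3631 were lower. Leaving out 1 line gave 1381 to 2299 lower. Carm1 shRNA against scramble called 2 genes, against 0 without a filter, 9 at a mean of 5 FPKM, 0 with quantiles matched, 22 with the limma trend and 8 without the wild-type line. Carm1 shRNA against wild-type called 638, against 406 with a pseudocount of 0.1, 10 without a filter, 1284 with the trend and 27 without the scramble line. Scramble against wild-type called 201, against 64 with a pseudocount of 0.1, 0 without a filter, 420 at a mean of 5 FPKM, 91 with quantiles matched, 853 with the trend and 93 without the Carm1 shRNA line. The interaction called 0 genes, and 1 with the trend. In Carm1 shRNA cells, genes 2-fold or more away from both controls numbered 19 with vehicle (46 with a pseudocount of 0.1) and 35 with RA (72 with that pseudocount, 23 at a mean of 5 FPKM). The mean log2 change of the Cdk4 and Cdk6 sum was -0.28, and -0.44 under median-of-ratios size factors. The causes were not tested. The interaction cannot be fitted without one of the lines. Depth limits Cdkn2a, which rests on about 2.6 to 19.8 reads per vehicle library.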
